A study of Rattus norvegicus with 6 samples.

Results

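Serotonin is made from tryptophan by tryptophan hydroxylase and an aromatic amino acid decarboxylase, is broken down by the monoamine oxidases of mitochondria, and acts on a family of receptors of which all but the ion channel subunits couple to G proteins. For sensory neurons it is known mainly as a signal from mast cells, platelets and descending brain pathways. Its receptors on nociceptors can raise or lower their excitability. The 10 genes described here were chosen by name, as found in the deposited group averages: the hydroxylases Tph1 and Tph2, the oxidases Maoa and Maob, the Gi-coupled receptors Htr1d and Htr1f, the Gq-coupled receptors Htr2a and Htr2b, and the ion channel subunits Htr3a and Htr3b. They are 10 of the 18696 genes with group averages. Of the 10, 2 (Tph2 and Htr3a) were among the 1637 genes with values for each library.

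The libraries were made from dorsal root ganglia of SD rats, where the cell bodies of sensory neurons lie among satellite glia and Schwann cells. In the SNI group (spared nerve injury, 3 libraries) the tibial and common peroneal nerves had been ligated and cut, with the sural nerve kept. In the sham group (3 libraries) the sciatic nerve and its branches had been exposed and the skin closed again. The sources used here do not give age, sex, side, spinal level, time after surgery or the number of animals behind each library, and p-values measure only the spread between these libraries, which may be technical. Expression is given as TPM, the share of a gene's transcripts in a library scaled to a fixed total, which corrects for gene length, so that levels of different genes can be set side by side.

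The tissue carried the markers of a sensory ganglion: the 9 pan-neuronal genes examined summed to 24675 TPM in SNI and 28111 TPM in sham, and 6 markers of myelinating Schwann cells to 5804 TPM in SNI and 10801 TPM in sham. The 8 markers of injured sensory neurons were all in the authors' deposited higher list, with a median log2 ratio of 3.77. Summed over all genes, the average read counts came to 18.591 M in SNI and 18.59 M in sham, and the depth of each library is unknown. Libraries of the same group differed by a median of 0.0569 to 0.131 on the log2 scale, against 0.238 to 0.258 between libraries of different groups. These medians cover only the 1596 genes with values per library and a mean of at least 1 TPM. That set is a selection in which differences between the groups were common, so the medians do not describe the whole transcriptome. In whole ganglia, fewer cells of a type and less RNA per cell cannot be told apart.

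The hydroxylases and the oxidases are each a pair of related genes of which 1 averaged far higher in SNI and the other did not, and their start regions are shown for that reason. The lines give 250 bases before and 50 bases after an annotated transcript start, 5′ to 3′ on the gene's strand. They come from RefSeq (build GRCr8), whose table held 8 of the 10 genes, all but Htr2a and Htr3a. The regions are chr7:52675590-52675889 (minus strand) for Tph2, chr1:106314579-106314878 (minus strand) for Tph1, chrX:8681323-8681622 (minus strand) for Maoa and chrX:8490155-8490454 (plus strand) for Maob. Capitals mark matches on either strand to the TATA box TATAAA, the AP-1 site TGANTCA, the GC box GGGCGG and the cyclic AMP response half-site TGACG, none of which overlap here.
Tph2: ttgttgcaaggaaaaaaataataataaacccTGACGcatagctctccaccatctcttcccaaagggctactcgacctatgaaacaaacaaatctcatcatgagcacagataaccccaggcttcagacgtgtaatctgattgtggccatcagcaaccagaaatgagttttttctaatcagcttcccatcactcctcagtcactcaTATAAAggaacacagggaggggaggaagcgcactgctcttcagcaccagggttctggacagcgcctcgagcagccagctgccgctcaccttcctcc
Tph1: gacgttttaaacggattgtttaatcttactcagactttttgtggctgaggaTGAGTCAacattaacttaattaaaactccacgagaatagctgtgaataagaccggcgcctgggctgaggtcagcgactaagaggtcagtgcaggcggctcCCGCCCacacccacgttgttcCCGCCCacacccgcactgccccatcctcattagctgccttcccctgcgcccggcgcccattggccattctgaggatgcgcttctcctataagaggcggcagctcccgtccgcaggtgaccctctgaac
Maoa: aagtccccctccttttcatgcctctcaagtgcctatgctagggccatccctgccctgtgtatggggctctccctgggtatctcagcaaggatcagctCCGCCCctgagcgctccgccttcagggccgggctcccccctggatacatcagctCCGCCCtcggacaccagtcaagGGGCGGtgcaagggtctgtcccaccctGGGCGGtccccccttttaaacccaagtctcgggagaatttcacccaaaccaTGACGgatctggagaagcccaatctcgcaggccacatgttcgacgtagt
Maob: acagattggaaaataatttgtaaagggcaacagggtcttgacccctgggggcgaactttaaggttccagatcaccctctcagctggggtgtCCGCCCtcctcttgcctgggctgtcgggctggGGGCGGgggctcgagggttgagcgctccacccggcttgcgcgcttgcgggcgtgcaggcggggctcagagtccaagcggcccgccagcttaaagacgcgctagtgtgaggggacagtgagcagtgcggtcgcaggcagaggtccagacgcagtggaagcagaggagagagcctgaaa

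The start region of Tph2 held 1 TATA box, at position -46 counted from the start, and 1 TGACG. That of Tph1 held no TATA box, 2 GC boxes and 1 AP-1 site. Maoa had 4 GC boxes and 1 TGACG, and Maob had 2 GC boxes and neither a TATA box nor an AP-1 site. The TGACG of Maoa lies at position 2, after the annotated start, in a stretch that opens with the letters ATG, as coding sequence does. Whether transcription of Maoa begins at this annotated start was not tested. Of 33469 such regions in the table, 14.2% held TATAAA, 7.33% TGANTCA, 33.1% GGGCGG and 21.2% TGACG. GC content was 48.7% for Tph2, 55.7% for Tph1, 61.0% for Maoa and 63.0% for Maob. Maoa and Maob are neighbours on chromosome X with no annotated gene between them, as Htr3a and Htr3b are on chromosome 8, while Tph1 and Tph2 lie on different chromosomes (1 and 7). Matches to such short motifs are a description of the letters and say nothing of binding.

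In the comparison of SNI with sham, which asked how the ganglion transcriptome differed after nerve injury, the genes of serotonin did not move as a block. In SNI, 6 of the 10 genes had a higher average and 4 a lower average. Their median log2 ratio of averages was 0.03, beside 0.02 over all 18696 genes. The ratio is that of the authors' averages after adding 1 TPM to each, which shrinks the difference of low genes. The authors' deposited higher list held 4 of the 10 genes (Tph2, Maoa, Htr1f and Htr2b), where it held 3.63% of all genes with averages. Their lower list held 0 of the 10, and 0.695% of all genes. These shares are no test, as the 10 genes were chosen with earlier results of these data known. Over all 14 serotonin receptor genes, the higher list held 2 and the lower list 0. Of the 2 genes tested with limma, Tph2 rose and Htr3a fell. Calls were common in the per-library table, which is a selection: 32.0% of its 1596 tested genes were called higher in SNI and 29.2% lower (510 and 466 genes; after quantile normalization, 402 and 608).

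**Figure D1:**
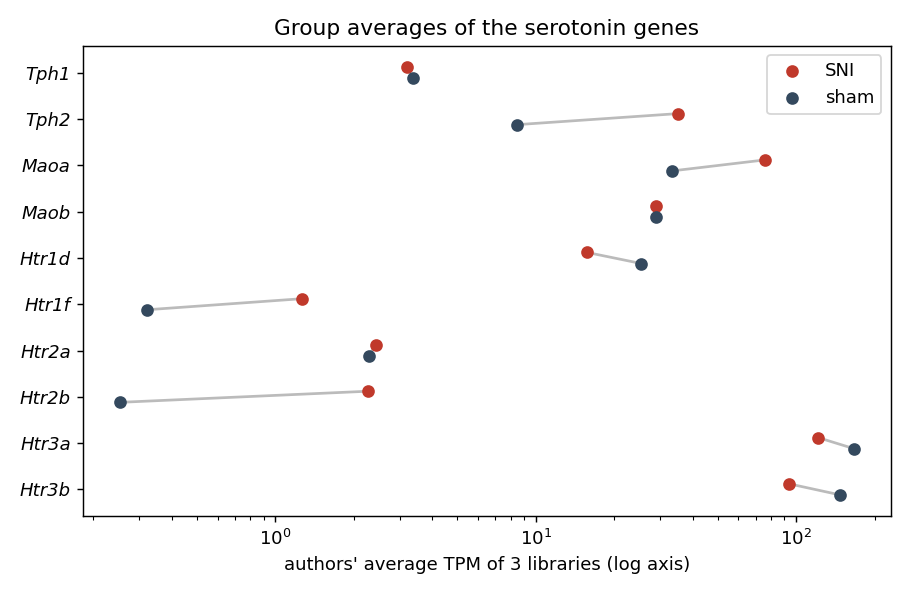
Average TPM of each of the 10 serotonin genes in SNI (red, upper point) and sham (dark, lower point) on a log axis, as the authors averaged 3 libraries, with no error. Tph2, Maoa, Htr1f and Htr2b lie to the right in SNI, Htr1d, Htr3a and Htr3b to the left, and the points of Tph1, Maob and Htr2a nearly coincide.

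Ordered by average level, the genes of the ion channel receptor came first in both groups. In SNI the order was Htr3a (121 TPM), Htr3b (93.7), Maoa (76.1), Tph2 (35.2), Maob (28.9), Htr1d (15.7), Tph1 (3.21), Htr2a (2.42), Htr2b (2.27) and Htr1f (1.27 TPM). In sham it was Htr3a (166 TPM), Htr3b (147), Maoa (33.2), Maob (28.9), Htr1d (25.4), Tph2 (8.43), Tph1 (3.37), Htr2a (2.29), Htr1f (0.320) and Htr2b (0.253 TPM). Tph2 thus stood above Maob and Htr1d in SNI and below both in sham. For the 8 genes without values per library, the spread is unknown, and whether neighbours in these orders differ was not tested.

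Tph2 (Gene ID 317675), the tryptophan hydroxylase known from serotonergic neurons of the brain, rose in SNI. It stood at 36.2, 35.1 and 34.3 TPM in the 3 SNI libraries and at 9.60, 7.38 and 8.32 TPM in the 3 sham libraries. Every SNI library lay above every sham library, as they did for 35.3% of the genes tested. The means were 35.2 ± 0.987 TPM in SNI and 8.43 ± 1.11 TPM in sham (SD, n = 3 each). The log2 fold change on the log2(TPM + 1) scale was 1.95 with SE 0.09 (limma, Benjamini-Hochberg adjusted p = 1.1e-07). Among the 1596 genes tested it had the 34th largest log2 fold change. The median log2 fold change of all of them was 0.01. RefSeq annotates a pseudogene, LOC103692856, that overlaps Tph2. The overlap was read from the spans of the genes, and whether their exons overlap was not checked. The sources used here do not say whether the authors' counting used strand. Without strand, reads from bases in exons of both genes could not be told apart.

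**Figure D2:**
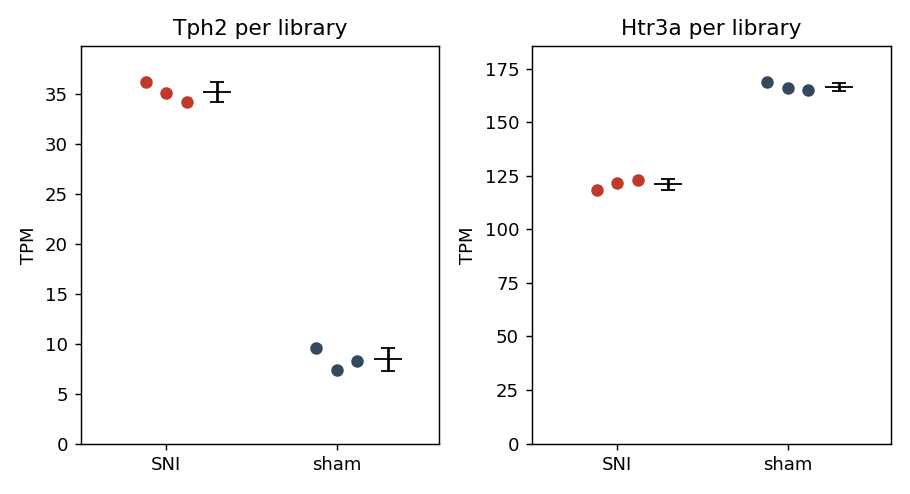
TPM of Tph2 (left) and Htr3a (right) in each library, with SNI left of sham. Points are the 3 libraries of a group and the bar beside them is the mean ± SD, and in neither gene do the groups overlap.

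Tph1 (Gene ID 24848), the hydroxylase known from mast cells, the gut and the pineal gland, averaged 3.21 TPM in SNI and 3.37 TPM in sham. Its summed reads stood at a ratio of 0.961, with a 95% exact binomial interval of 0.826 to 1.12 that covers counting error only. The average TPM of Tph2 was 11.0 times that of Tph1 in SNI and 2.50 times in sham. The list of 9 mast cell markers summed to 27.1 TPM in SNI and 29.6 TPM in sham, with 3 averages higher in SNI and 6 lower and none at 0. Most of that sum was Kit, a receptor that other ganglion cells also carry, at 21.7 TPM in SNI and 21.8 TPM in sham. Histidine decarboxylase, Hdc, averaged 2.47 TPM in SNI and 0.593 TPM in sham and was the only one of the 9 in the authors' deposited higher list. The protease Mcpt1l1 averaged 1.44 TPM in SNI and 4.08 TPM in sham and was the only one in their lower list, and the protease Cpa3 averaged 0.383 TPM in SNI and 0.650 TPM in sham. The part of mast cells in the level of Tph1 was not tested. Of the 4 markers of serotonergic neurons other than Tph2, 2 averages were higher in SNI and 2 lower. The transcription factor Fev averaged 0.223 TPM in SNI and 0.103 TPM in sham, and the transcription factor Gata3, which was in the authors' deposited higher list, 0.777 TPM in SNI and 0.293 TPM in sham. The serotonin transporter Slc6a4 averaged 0.233 TPM in SNI and 0.463 TPM in sham, and the vesicular monoamine transporter Slc18a2 15.3 TPM in SNI and 18.5 TPM in sham.

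Maoa (Gene ID 29253), the monoamine oxidase that prefers serotonin and noradrenaline, averaged 76.1 TPM in SNI and 33.2 TPM in sham, 2.29 times as high, and was in the authors' deposited higher list. Maob (Gene ID 25750), which prefers phenylethylamine and is known from glia and from serotonergic neurons, averaged 28.89 TPM in SNI and 28.87 TPM in sham, at a ratio of 1.00. For its summed reads the ratio was 1.01, with an exact binomial interval of 0.946 to 1.08. The average TPM of Maoa was 2.63 times that of Maob in SNI and 1.15 times in sham. These genes had no values per library, so neither the difference nor its absence could be set against the spread between libraries. Like Tph2 and the averages of Maoa, Htr1f and Htr2b, the summed levels of several marker lists were higher in SNI. Those of the pan-neuronal, nociceptor, mast cell, myelinating Schwann cell and fibroblast and sheath lists were lower. The 8 markers of injured sensory neurons summed to 3349 TPM in SNI and 419 TPM in sham. The 8 macrophage markers summed to 239 TPM in SNI and 107 TPM in sham, with all 8 averages higher in SNI and 5 of the 8 in the authors' deposited higher list. The 2 macrophage markers with values per library did not pass limma's test, Cd163 at a log2 fold change of 0.04 (adjusted p = 0.731) and Mrc1 at 0.18 (adjusted p = 0.0727). The 5 erythrocyte markers summed to 1828 TPM in SNI and 567 TPM in sham, and all 5 were in the authors' deposited higher list. The 6 markers of satellite glia summed to 698 TPM in SNI and 610.5 TPM in sham, the 8 of vessels to 167 TPM in SNI and 147 TPM in sham, and the 6 of fibroblasts and sheath to 788 TPM in SNI and 842 TPM in sham. Of 5 platelet markers, the 4 found summed to 21.1 TPM in SNI and 13.8 TPM in sham. Pf4 made up most of that sum, with 19.8 TPM in SNI and 12.3 TPM in sham, while Ppbp and Gp9 were near 0 in both groups. None of these markers was at 0, and their part in the levels of the serotonin genes was not tested.

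Htr3a (Gene ID 79246), the subunit that can form a serotonin-gated cation channel by itself, fell in SNI. It stood at 118, 122 and 123 TPM in the SNI libraries and at 168.7, 165.9 and 164.8 TPM in the sham libraries. Every SNI library lay below every sham library, as they did for 31.3% of the genes tested. The means were 121 ± 2.55 TPM in SNI and 166 ± 2.02 TPM in sham (SD, n = 3 each). The log2 fold change was -0.46 with SE 0.04 (limma, Benjamini-Hochberg adjusted p = 1.4e-05), at percentile 10.6 of the log2 fold changes of all genes tested. Htr3b (Gene ID 58963), which joins Htr3a in channels of altered conductance, averaged 93.7 TPM in SNI and 147 TPM in sham, 0.636 times as high. It had no values per library and was in neither of the authors' deposited lists. The average TPM of Htr3b was 0.774 times that of Htr3a in SNI and 0.885 times in sham. Beside these subunits, 8 nociceptor markers summed to 2461 TPM in SNI and 2695 TPM in sham, with 2 averages higher and 6 lower in SNI and a median log2 ratio of -0.36. Their part in the levels of Htr3a and Htr3b was not tested.

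The G protein-coupled receptors were lower in level than the ion channel subunits, and their averages differed in direction. Htr1d (Gene ID 25323), a Gi-coupled receptor on trigeminal and spinal afferents that triptans activate, averaged 15.7 TPM in SNI and 25.4 TPM in sham, 0.619 times as high. Its log2 ratio of -0.66 lay at percentile 1.93 of the 14944 genes that averaged at least 1 TPM in either group, next to that of Htr3b at percentile 2.03, and neither of the authors' deposited lists held it. Htr1f (Gene ID 60448), another Gi-coupled receptor, which lasmiditan activates, averaged 1.27 TPM in SNI and 0.320 TPM in sham. These averages rest on 48 reads summed over 3 SNI libraries and 12 reads summed over 3 sham libraries. The ratio of the reads was 4.0, with an exact binomial interval of 2.09 to 8.27. The authors' deposited higher list held Htr1f.

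Htr2a (Gene ID 29595), a Gq-coupled receptor that raises nociceptor excitability in rodents, averaged 2.42 TPM in SNI and 2.29 TPM in sham. On 103 reads summed over SNI and 96 over sham, the ratio was 1.07, with an exact binomial interval of 0.805 to 1.43. Htr2b (Gene ID 29581), the other Gq-coupled member, averaged 2.27 TPM in SNI and 0.253 TPM in sham, and the authors' deposited higher list held it. The size of this difference depends on the measure: the ratio of average TPM was 8.95, and that of average read counts 4.94 (49.7 reads in SNI and 10.1 reads in sham). Read counts per TPM were 21.9 in SNI and 39.7 in sham, so that this quantity in SNI was 0.552 of that in sham. In the other 9 genes the same quotient lay between 0.974 and 1.01, and of the 14944 genes that averaged at least 1 TPM, Htr2b had the lowest. RefSeq annotates Htr2b as overlapping Psmd1, a proteasome subunit gene that averaged 185 TPM in SNI and 189.6 TPM in sham, far above Htr2b. This overlap too was read from the spans of the genes, and whether their exons overlap was not checked. Without strand, reads from bases in exons of both genes could not be told apart. The part of such reads in the values of Htr2b was not tested.

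**Figure D3:**
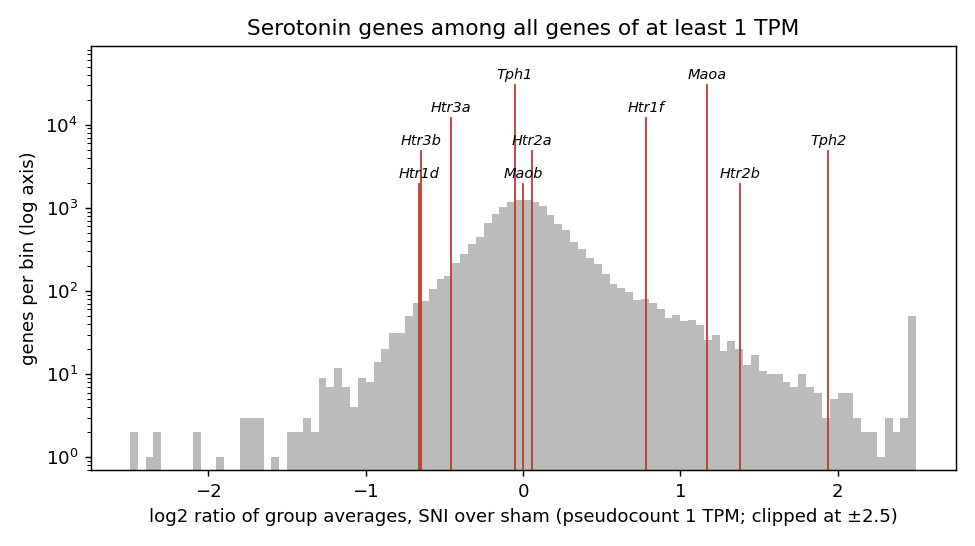
Histogram of the log2 ratio of group averages (SNI over sham, 1 TPM added) for the 14944 genes of at least 1 TPM in either group, clipped at ±2.5, with a log count axis. Red lines mark the 10 serotonin genes: Htr1d, Htr3b and Htr3a lie in the lower tail, Tph1, Maob and Htr2a near 0, and Htr1f, Maoa, Htr2b and Tph2 in the upper tail.

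Among those 14944 genes, the log2 ratio of Tph2 (1.94) lay at percentile 99.4, those of Htr2b (1.38) and Maoa (1.17) at 98.7 and 98.1, and that of Htr1f (0.78) at 95.3. Those of Htr2a, Maob and Tph1 lay at percentiles 56.6, 47.1 and 38.0, and that of Htr3a (-0.46) at 5.08. These ranks take no account of the spread between libraries. For the tested genes, the most similar profiles were sought as the smallest root mean square difference of log2(TPM + 1) over the 6 libraries, each gene centred on its own mean. For Tph2 they were those of the kinase inhibitor Cdkn1a, the transcription factor Fos and the tubulin Tubb6, at differences of 0.0514, 0.077 and 0.0893, where the median over 1595 genes was 0.977. Cdkn1a stood at 45.5 ± 1.70 TPM in SNI and 11.7 ± 1.63 TPM in sham (SD, n = 3 each). For Htr3a they were those of the matrix protein Sparcl1, the glycogen phosphorylase Pygb and the polarity protein Patj, at 0.023, 0.0239 and 0.0306, with a median of 0.256. Sparcl1 stood at 162 ± 1.35 TPM in SNI and 222 ± 5.95 TPM in sham (SD, n = 3 each). With 2 groups of 3 libraries, such differences mostly follow how alike the log2 fold changes are. The log2 fold changes were 1.95 for Tph2, 1.885 for Cdkn1a, 1.823 for Fos and 2.05 for Tubb6. Similar profiles here do not show regulation in common.

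Of the 30 other genes of the pathway that were listed, 13 averages were higher in SNI and 17 lower, with a median log2 ratio of -0.04, and 1, Gch1, was in the authors' deposited higher list. Gch1, GTP cyclohydrolase, makes the first intermediate of tetrahydrobiopterin, the cofactor that tryptophan hydroxylase needs. It averaged 13.7 TPM in SNI and 1.59 TPM in sham, 8.60 times as high. Of the 6 genes of this cofactor, 5 averages were higher in SNI and 1 lower. Those of Qdpr, which regenerates the cofactor, were 350 TPM in SNI and 258 TPM in sham, and those of Pcbd1, which acts in the same recycling, 115 TPM in SNI and 106 TPM in sham. Spr, which makes the last step of synthesis and was singled out after its value was seen, averaged 74.5 TPM in SNI and 37.7 TPM in sham. Ddc, the decarboxylase that completes serotonin synthesis, likewise singled out, averaged only 0.507 TPM in SNI and 0.687 TPM in sham. Of the enzymes that turn serotonin into melatonin, Asmt averaged 3.04 TPM in SNI and 2.35 TPM in sham, and Aanat 1.91 TPM in SNI and 2.97 TPM in sham.

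**Figure D4:**
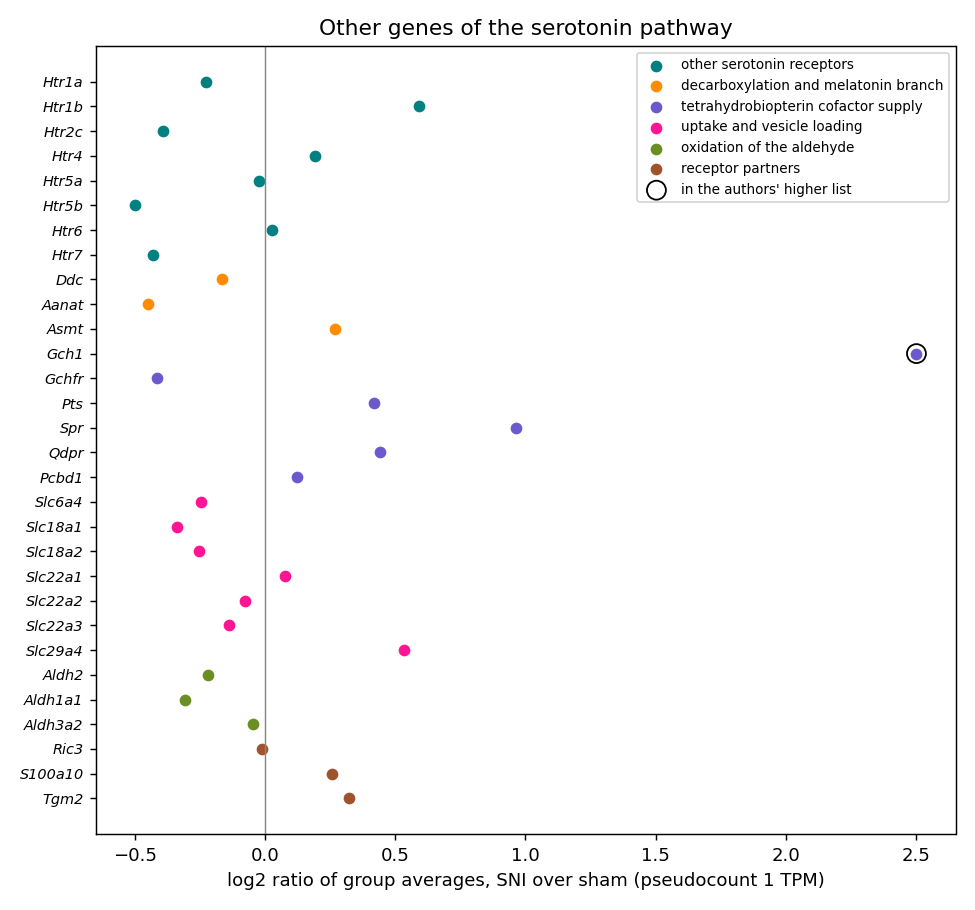
Log2 ratio of group averages (SNI over sham, 1 TPM added) of the 30 other genes of the serotonin pathway, coloured by role, with a ring for the authors' higher list. Gch1, at 2.50, is the ringed gene, and the other 29 lie between -0.50 and 0.96.

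Of 7 transporters, 2 averages were higher in SNI and 5 lower. Slc29a4, a low-affinity monoamine transporter of the plasma membrane, averaged 42.5 TPM in SNI and 29.0 TPM in sham, and Slc18a2, which loads monoamines into vesicles, 15.3 TPM in SNI and 18.5 TPM in sham. Among 8 receptor genes outside the 10, 3 averages were higher in SNI and 5 lower, with a median log2 ratio of -0.13. The 2 with the largest averages were both among the higher ones. Htr1b, a Gi-coupled receptor close to Htr1d, averaged 15.5 TPM in SNI and 9.98 TPM in sham. Htr4, a Gs-coupled receptor, averaged 6.38 TPM in SNI and 5.46 TPM in sham. Over all 14 receptor genes the averages summed to 266 TPM in SNI and 369 TPM in sham, with 6 higher and 8 lower in SNI.

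Of these pathway genes, 3 had values per library. The aldehyde dehydrogenase Aldh2, which oxidizes the product of the monoamine oxidases, fell to 88.9 ± 1.46 TPM in SNI, against 104 ± 1.63 TPM in sham (SD, n = 3 each; log2 fold change -0.22, SE 0.04, limma adjusted p = 0.0021). Aldh1a1, a related dehydrogenase, fell to 11.3 ± 0.785 TPM in SNI, against 14.2 ± 1.75 TPM in sham (log2 fold change -0.30, SE 0.09, limma adjusted p = 0.021), a call lost without SNI replicate 3 (0.087), sham replicate 1 (0.066) or sham replicate 2 (0.054). Aldh3a2, with averages alone, stood at 88.3 TPM in SNI and 91.3 TPM in sham. S100a10, an adaptor that binds Htr1b and Htr4, rose to 2515 ± 118 TPM in SNI, against 2105 ± 70.1 TPM in sham (log2 fold change 0.26, SE 0.04, limma adjusted p = 0.00091), and under quantile normalization it went the other way without a call (log2 fold change -0.08, limma adjusted p = 0.078). Ric3, a chaperone of the ion channel receptor, averaged 23.6 TPM in SNI and 23.7 TPM in sham.

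The authors attached the KEGG name Serotonergic synapse to 10 of the 699 genes of their deposited higher list (1.43%), of which 4 were Tph2, Maoa, Htr1f and Htr2b. The other 6 were Alox15, Cyp2d1, Gabrb1, Gngt2, Pla2g4a and Plcb2, enzymes, a GABA receptor subunit and a G protein subunit that this pathway shares with others. In the authors' deposited lower list, 2 genes had the name (1.47% of that list), Cyp2d3 and Pla2g4e, and none of the 10 serotonin genes was among them. As that share rests on 2 genes and the share over all genes was not determined, the shares were not compared.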

How the data were processed

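The values deposited by the authors are, per the file headers, TPM of 6 libraries for 1637 genes and, for 18696 genes, a mean TPM and a mean read count for SNI and sham. They also deposited lists of 699 genes called higher and 136 called lower. The mean read counts deposited by the authors are estimated counts, whole after multiplying by 3 for 64.8% of genes in SNI and 65.4% in sham (tolerance 0.001 per library). No aligner, counter, build, annotation or list criterion is named in the files or labels. Control columns were taken as sham.

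Values were set on the log2(TPM + 1) scale and fitted with limma 3.58.1 under R 4.3.3 (trended variance, no covariate, adjusted p under 0.05 after Benjamini-Hochberg). The filter, an average of 1 TPM or more over all libraries, kept 1596 genes and dropped 41. The fit was tested on simulated data. With 3 libraries a group, permutation of single genes goes no lower than 0.1 and was not used. Intervals for summed reads are exact binomial (95%), cover counting error only and assume equal scaling of both groups.

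The members and the lists of 30 pathway and 83 marker genes (82 found) were chosen with earlier results of these data known. The pathway genes named are those with values per library or in the authors' lists, and the 2 with the largest averages per list. Python 3.11.15 with pandas 2.3.3 and scipy 1.17.1 did the rest. The RefSeq table (GRCr8) gave names, overlaps and start regions alone.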

Additional observations from a re-analysis of the deposited data

How the results depend on the processing

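Tph2 stayed higher and Htr3a lower in SNI, both past the threshold, under all 13 alternatives. Their log2 fold changes without 1 library ranged from 1.86 to 2.03 for Tph2 (limma adjusted p of 3.9e-07 to 5.3e-06) and from -0.47 to -0.44 for Htr3a (5.6e-05 to 0.00016). Genes called ranged from 442 to 522 higher and 381 to 477 lower without 1 library. Quantile normalization moved the split from 510 higher and 466 lower to 402 higher and 608 lower. Under it, 0 pathway genes were called higher in place of 1, as S100a10 went to a log2 fold change of -0.0838, without a call (limma adjusted p = 0.078). Without 1 library, 1 to 2 pathway genes were called lower. Ratios of averages of low genes moved with the measure: for Htr1f the log2 ratio was 0.78 with 1 TPM added, 1.98 with none and 2.00 from read counts, and for Htr2b it was 1.38, 2.74 with 0.1 TPM added, 3.16 with none and 2.30 from read counts. Deviations of same-numbered libraries correlated at -0.088, -0.059 and 0.188, and those of unlike-numbered libraries at -0.288 to 0.291. With 3 libraries a group, these values cannot show whether the numbers pair the libraries. With the replicate block, 498 genes were called higher and 447 lower, and the log2 fold changes were 1.95 for Tph2 (limma adjusted p = 8.9e-08) and -0.46 for Htr3a (5.8e-05). The 8 serotonin genes without values per library have no replicate check, and at 12 reads in sham the size of the difference in Htr1f is known to counting error of 2.09-fold to 8.27-fold at best.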
